A study of Mus musculus with 6 samples.

Results

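The neurotrophins and their receptors are described here through 7 genes, taken by name from a table of 53858 genes: the ligands *Bdnf* and *Ntf3*, the tyrosine kinase receptors *Ntrk2* and *Ntrk3*, the co-receptors *Ngfr* and *Sort1*, and the receptor scaffold *Kidins220*. They were measured by RNA sequencing in 6 small pools of motor neurons picked from the spinal cord of wild-type mice, 10 to 15 fluorescent cells each. Cells were taken on day 6 after sciatic nerve crush. All pools came from crushed nerves and carried DiO, a lipophilic dye given proximal to the injury on day 0 that marks injured motor neurons. In 3 of them, called DiO-only pools, DiI was absent, and in the other 3, called double-labelled pools, the cells also carried DiI, given at a distal site on day 2 to mark neurons whose regrowing axons arrived there first. No uninjured pool was analysed here. The labels give neither strain, sex nor age, and do not tie the pools to individual animals. They mention 3 batches of libraries but assign no pool to a batch, so no fit here is known to account for batch. The p-values therefore measure the spread between pools only, and this spread may be technical.

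Neurotrophins are small secreted growth factors that support survival, axon growth and synapses of neurons. BDNF acts mainly through TrkB, the product of *Ntrk2*, and neurotrophin-3 mainly through TrkC, the product of *Ntrk3*. Both ligands, and their uncleaved precursors, also bind the receptor p75NTR encoded by *Ngfr*, which injured motor neurons are known to re-express, and the precursors bind p75NTR together with sortilin, encoded by *Sort1*. Kidins220 is a membrane scaffold that binds Trk receptors and p75NTR. Adult motor neurons are known to express TrkB and TrkC, and BDNF is known to support their survival after axon injury.

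Total counts per pool ran from 2997714 to 6563403. The motor neuron markers *Chat* and *Isl1* were present in every pool, at 59.6 to 142 and 16.5 to 35.7 CPM (read counts of a gene relative to its library's TMM-scaled total). Markers of other cells moved with the groups. The summed CPM of 12 oligodendrocyte markers ran from 286 to 581 in DiO-only pools and from 1460 to 4930 in double-labelled pools, and all 10 that could be tested were higher. For 12 astrocyte markers the sums ran from 878 to 1290 and from 1090 to 2370, with 9 of 11 tested genes higher. Interneuron markers went the other way: the summed CPM of 10 genes was 874, 119 and 121 in DiO-only pools 1, 2 and 3 and 16.1 to 42.5 in double-labelled pools. Most of each DiO-only sum came from a different gene: *Penk* with 803.5 CPM in pool 1, *Sst* with 105.2 in pool 2 and *Slc6a5* with 92.45 in pool 3. All 3 interneuron markers that could be tested were lower, with a median log2 fold change of -2.19 (-1.49 without DiO-only pool 1). For all 3 the groups overlapped, and 0 had an unadjusted p under 0.05 in edgeR. At least 1 count was found for 17229 to 22118 genes in DiO-only pools and for 15657 to 16467 genes in double-labelled pools.

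The comparison asks which transcripts differ between injured motor neurons whose axons regrew early to the distal site and those that the distal dye did not mark. *Sort1* and *Ntrk2* stood higher in every double-labelled pool than in any DiO-only pool, *Ntrk3*, *Bdnf*, *Ngfr* and *Kidins220* had overlapping groups, and *Ntf3* had no count in any pool. In pools this small, fewer cells of a type and less RNA per cell cannot be told apart. Of the 7 genes 6 had enough counts for edgeR's quasi-likelihood test, and 0 of them passed at an adjusted p of 0.05, as did 0% of the 12954 genes tested. At an unadjusted p under 0.05 there was 1 of the 6, *Sort1*, against 5.81% of all genes tested. DESeq2 also called 0 of the 6, while calling 0.495% of all genes to which it gave an adjusted p.

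**Figure D1:**
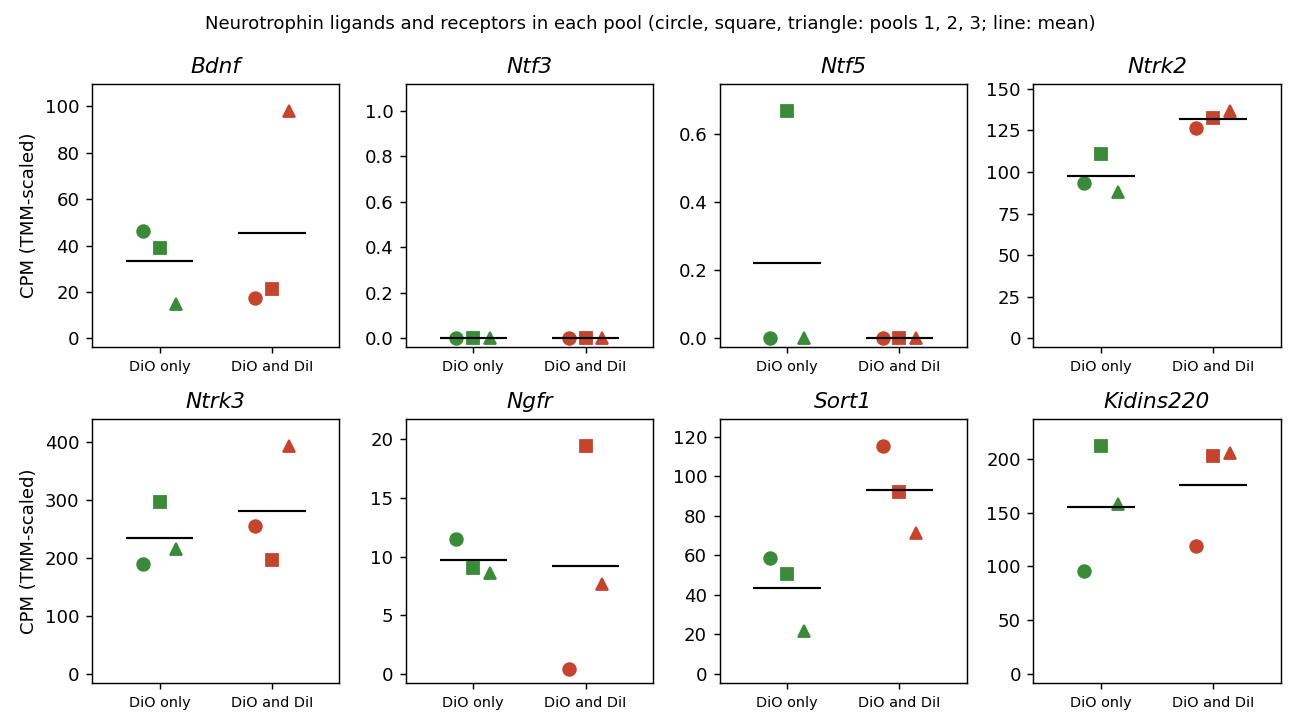
Level of each gene in each pool, in TMM-scaled CPM on linear axes that differ between panels; green, DiO only; red, DiO and DiI; circle, square and triangle, pools 1, 2 and 3; lines, means of 3 pools. *Sort1* and *Ntrk2* have groups that do not overlap, from 21.8 to 58.5 against 71.2 to 115 CPM and from 88.2 to 111 against 126 to 137 CPM.

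Among the ligands, *Bdnf* was the one with counts in all 6 pools. *Bdnf* (ENSMUSG00000048482; GRCm38 chromosome 2, 109674700 to 109727007, plus strand) encodes brain-derived neurotrophic factor. Its level in DiO-only pools 1, 2 and 3 was 46.1, 39.1 and 14.9 CPM, and in double-labelled pools 1, 2 and 3 it was 17.5, 21.2 and 98.1 CPM. The highest and the 2 next to lowest of these 6 values were all in the double-labelled group, so the groups overlapped. The means were 33.4 ± 16.3 and 45.6 ± 45.5 CPM (SD, n = 3), with a log2 fold change of 0.46 ± 0.66 (SE; 95% interval -0.98 to 1.90) for double-labelled against DiO-only pools and an edgeR adjusted p of 0.979. This value rested on double-labelled pool 3: without that pool the log2 fold change was -0.80 (edgeR adjusted p = 0.677). Without DiO-only pool 3 it was 0.09.

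*Bdnf* is transcribed from several alternative start sites, each with its own first exon, and the deposited counts add them together. RefSeq start-site windows (GRCm38.p6, 250 bases before to 50 after each start) were found for 5 of the 7 genes, 12 windows in all, of which 7 belong to *Bdnf*. The cyclic-AMP response element, through which neuronal activity is known to drive *Bdnf*, was searched in its palindromic form TGACGTCA and in the variant TCACGTCA on both strands. The palindrome was in 0 of the 7 *Bdnf* windows and in 1.79% of all 32851 windows. The variant was in 1 of the 7 and in 0.441% of all windows. Both forms were chosen for a search of *Bdnf*, so these shares do not measure an enrichment. That window, chr2:109692186-109692485 on the plus strand, is shown because it is the only *Bdnf* window with a match, with the 8 matching bases in capitals, their first base lying 38 bases before the start.
Bdnf window: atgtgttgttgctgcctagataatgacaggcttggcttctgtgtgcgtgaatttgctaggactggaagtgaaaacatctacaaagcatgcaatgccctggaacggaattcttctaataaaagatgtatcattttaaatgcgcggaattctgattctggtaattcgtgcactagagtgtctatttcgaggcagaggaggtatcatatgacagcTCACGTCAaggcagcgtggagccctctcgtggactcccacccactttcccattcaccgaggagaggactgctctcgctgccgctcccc
A match is a description of the sequence, and the counts do not show which start site was used in any pool.

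Of the other ligands, *Ntf3* (ENSMUSG00000049107; GRCm38 chromosome 6, 126101412 to 126166910, minus strand), which encodes neurotrophin-3, had 0 counts in each of the 6 pools. A count of 0 allows up to 3 counts, which is 0.402 to 1.1 CPM depending on the pool, an upper limit for counting error only. *Ntf5*, which encodes neurotrophin-4, had 2 counts, both in DiO-only pool 2. *Bdnf* was the only one of these 3 ligand genes seen above that limit.

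The Trk receptor genes were present in every pool, *Ntrk2* with 332 to 1020 counts and *Ntrk3* with 535 to 2931. *Ntrk2* (ENSMUSG00000055254; chromosome 13, 58806569 to 59133970, plus strand) encodes TrkB. It stood at 93.5, 110.9 and 88.2 CPM in DiO-only pools 1, 2 and 3 and at 126, 132.5 and 137 CPM in double-labelled pools 1, 2 and 3. All double-labelled pools were above all DiO-only pools and close to each other, 132 ± 5.29 CPM against 97.5 ± 11.9 CPM (SD, n = 3). Of all genes tested 5.86% had groups that did not overlap in this direction. The log2 fold change was 0.43 ± 0.29 (SE; 95% interval -0.21 to 1.08; edgeR adjusted p = 0.942), and it lay between 0.35 and 0.54 in all 14 alternative fits.

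The annotation lists 10 transcripts of *Ntrk2*, 7 of them protein-coding. Besides the full-length kinase, the gene gives a truncated TrkB without the kinase that astrocytes are known to express strongly, and counts per gene do not separate these forms. Of 11 astrocyte markers tested, 9 moved in the same direction as *Ntrk2* and 2 were lower. *Aqp4*, the astrocytic water channel, stood at 3.94, 1.00 and 8.76 CPM in DiO-only pools 1, 2 and 3 and at 31.0, 17.6 and 32.4 CPM in double-labelled pools 1, 2 and 3. *Slc1a2*, in the same order of pools, stood at 10.6, 15.0 and 14.3 CPM against 93.3, 39.9 and 84.7 CPM. Of the 11 markers 6 were higher without overlap between the groups, against 5.86% of all genes tested. At an unadjusted p under 0.05 in edgeR 7 were higher, against 3.18%. Some of the other astrocyte markers overlapped between the groups. *Aldh1l1* had 1.313, 12.03 and 52.58 CPM in DiO-only pools 1, 2 and 3, against 0, 12.81 and 14.61 CPM with both dyes. For *S100b* the values were 263.6, 907 and 236.1 CPM against 348.3, 594 and 344.6 CPM, in the same order of pools. *Gfap*, with a higher mean in double-labelled pools, overlapped too. The part of astrocyte RNA in the *Ntrk2* counts was not tested.

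*Ntrk3* (ENSMUSG00000059146; chromosome 7, 78175959 to 78738012, minus strand) encodes TrkC and had the highest mean CPM of the 7 genes, not corrected for length, though *Kidins220* was above it in double-labelled pool 2. It stood at 189, 297 and 216 CPM in DiO-only pools 1, 2 and 3 and at 256, 196 and 393 CPM in double-labelled pools 1, 2 and 3. The groups overlapped, and double-labelled pools held both the highest and the second lowest value. The log2 fold change was 0.27 ± 0.34 (SE; 95% interval -0.48 to 1.02), the adjusted p in edgeR was 0.978, and without double-labelled pool 3 it was -0.06.

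*Ngfr* (ENSMUSG00000000120; chromosome 11, 95568818 to 95587735, minus strand), which encodes p75NTR, was the least abundant of the 6 genes with counts. It had 79, 27 and 50 counts in DiO-only pools 1, 2 and 3, which is 11.5, 9.02 and 8.59 CPM. Double-labelled pools 1, 2 and 3 had 2, 53 and 57 counts, which is 0.411, 19.4 and 7.64 CPM. The DiO-only pools lay close together, and the double-labelled pools held the lowest value, under the 3 counts taken as the floor, as well as the highest. The means, 9.71 ± 1.58 and 9.15 ± 9.58 CPM (SD, n = 3), were near each other, but the 95% interval of the log2 fold change of -0.11 ± 0.98 (SE) ran from -2.26 to 2.05 (edgeR adjusted p = 0.996). Direction depended on single pools: the log2 fold change was 0.46 without double-labelled pool 1, -1.27 without double-labelled pool 2 and 0.03 without DiO-only pool 1. With all libraries thinned to 2997714 counts, double-labelled pool 1 kept 2 counts of *Ngfr*, against 24 to 53 in the other 5 pools.

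*Sort1* had the largest difference of the 6 genes tested. *Sort1* (ENSMUSG00000068747; chromosome 3, 108284082 to 108361511, plus strand) encodes sortilin, which sorts proteins between the Golgi and endosomes and serves as co-receptor for precursor neurotrophins. It stood at 58.5, 50.4 and 21.8 CPM in DiO-only pools 1, 2 and 3 and at 115, 92.2 and 71.2 CPM in double-labelled pools 1, 2 and 3. All double-labelled pools were above all DiO-only pools, which held for 5.86% of all genes tested. The log2 fold change was 1.09 ± 0.41 (SE; 95% interval 0.19 to 2.00), with an unadjusted p of 0.0223 and an adjusted p of 0.742 in edgeR, so the difference failed the threshold over all genes. Higher at an unadjusted p under 0.05 were 3.18% of all genes tested. The log2 fold change lay between 0.75 (without DiO-only pool 3) and 1.36 (without DiO-only pool 1) over 14 alternative fits. The lowest adjusted p was 0.275, in edgeR with the replicate block. The unadjusted p in edgeR was 0.0988 without DiO-only pool 3, and 0.0699 and 0.053 without double-labelled pools 1 and 2. With any other pool left out it was under 0.05.

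Summed oligodendrocyte and astrocyte markers were higher on average, and summed interneuron markers lower, in the double-labelled pools, as given above (the astrocyte sums overlapped). Their part in the *Sort1* difference was not tested.

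*Kidins220* (ENSMUSG00000036333; chromosome 12, 24974925 to 25063152, plus strand), the scaffold, stood at 95.6, 212 and 158 CPM in DiO-only pools 1, 2 and 3 and at 119, 203 and 206 CPM in double-labelled pools 1, 2 and 3. The groups overlapped, and in both of them pool 1 was the lowest. The log2 fold change was 0.18 ± 0.37 (SE; 95% interval -0.63 to 0.99; edgeR adjusted p = 0.987), and without DiO-only pool 1 it was -0.08.

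**Figure D2:**
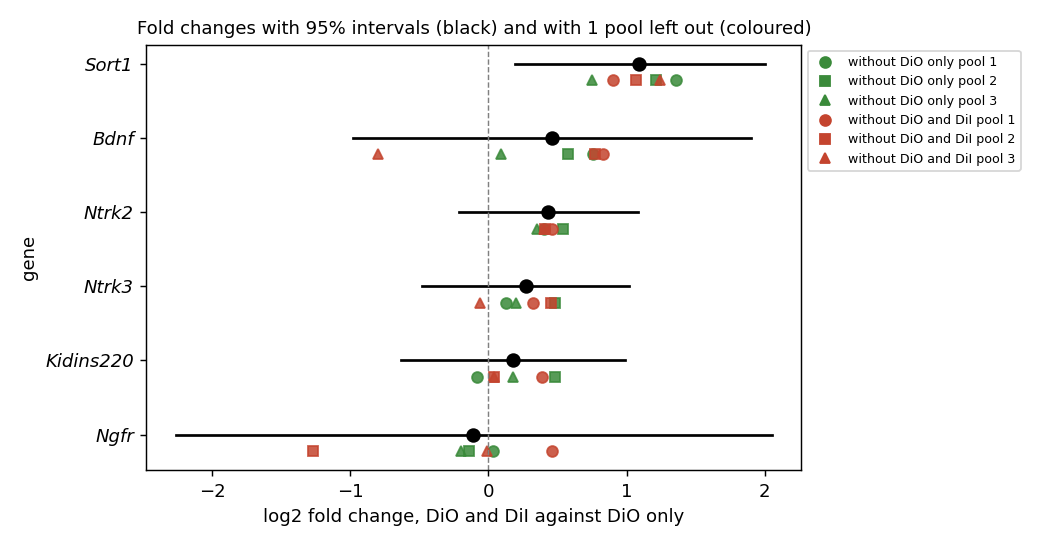
Log2 fold change of double-labelled against DiO-only pools for the 6 genes with enough counts (black points, with 95% intervals as lines), and the same with 1 pool left out (coloured; shape, the pool left out). The interval of *Sort1*, 0.19 to 2.00, is the only one above 0 and is not adjusted for the number of genes, and *Bdnf* moves to -0.80 without double-labelled pool 3.

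Per kilobase of annotated exon, *Kidins220* had the highest mean level over the 6 pools, 19.1 CPM per kilobase, with a range of 11.0 to 24.4. It stood above *Ntrk2*, *Ntrk3*, *Bdnf* and *Ngfr* in 6 of 6 pools and above *Sort1* in 5 of 6. *Sort1*, *Ntrk3*, *Bdnf* and *Ntrk2* followed at 9.01, 8.54, 6.35 and 5.94 CPM per kilobase. These 4 neighbours overlapped in their ranges over pools (2.88 to 15.2, 6.26 to 13.0, 2.40 to 15.8 and 4.57 to 7.08), and *Ntrk3* stood above *Sort1* in 3 of 6 pools. *Ngfr* was lower at 2.74 CPM per kilobase, below *Ntrk2*, *Ntrk3* and *Sort1* in 6 of 6 pools and below *Bdnf* in 4 of 6.

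The order in the middle depended on the length used. With the longest annotated transcript in place of all exons, *Ntrk2* and *Ntrk3* both stood at 13.1 CPM per kilobase, ahead of *Sort1* at 9.98 and *Bdnf* at 9.26, while *Kidins220* stayed first at 22.3 and *Ngfr* sixth at 2.74. Within single pools the level of *Ntrk3* was 0.945 to 1.84 times that of *Ntrk2* per kilobase of exon and 0.656 to 1.28 times with the longest transcript. *Sort1* stood 1.16 to 4.24 times as high as *Ngfr* per kilobase of exon in 5 pools. In double-labelled pool 1, where *Ngfr* had 2 counts, *Sort1* had 560.

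**Figure D3:**
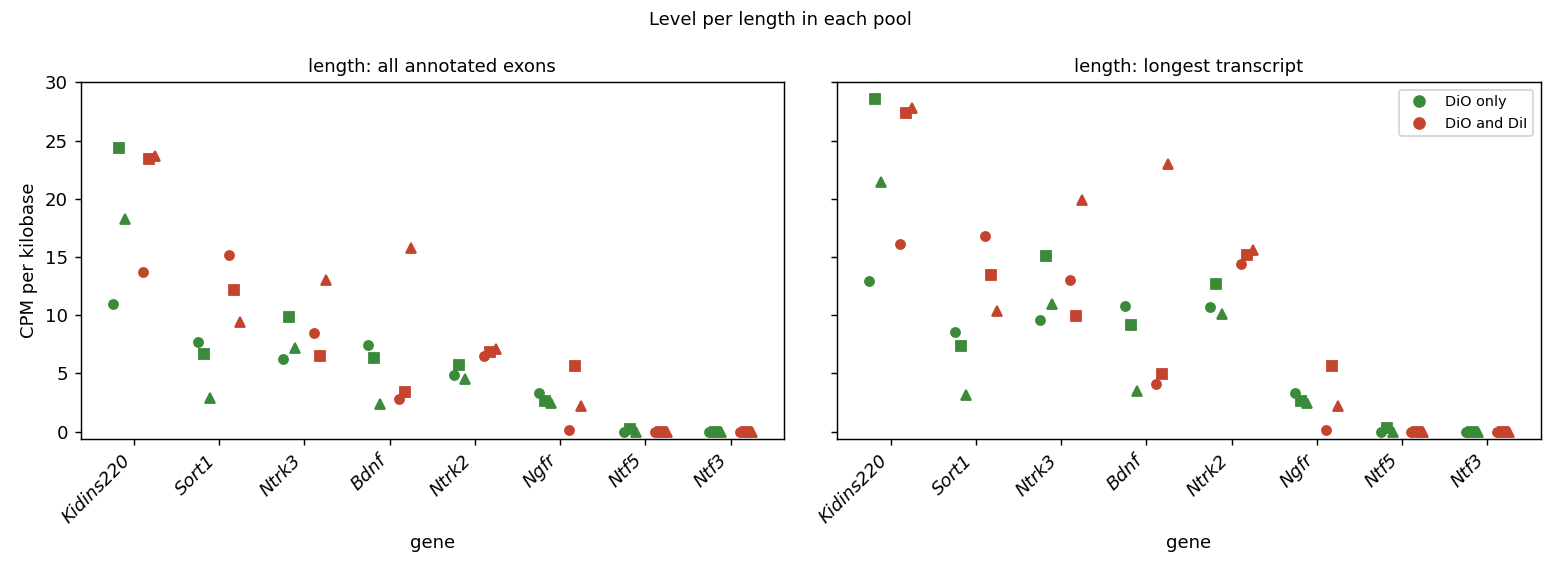
CPM per kilobase in each pool for the 7 genes and for *Ntf5*, with the length of all annotated exons (left) and of the longest transcript (right); green, DiO only; red, DiO and DiI; circle, square and triangle, pools 1, 2 and 3. *Kidins220* is highest on average on both scales, at 19.1 and 22.3, and *Ntf3* is at 0 in every pool.

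The 6 genes did not share 1 pattern over the 6 pools. Pearson's r of log2 CPM between them, as a description over 6 libraries that share their depth and composition, ran from -0.39 (*Ngfr* with *Sort1*) to 0.80 (*Ntrk2* with *Sort1*). Among 10780 other genes with a mean of at least 5 CPM, the most like *Ntrk2* were *Ppp1r9a* (r = 0.991), which encodes the actin-binding scaffold neurabin, *Cyp2j6* (0.985) and *Setd2* (0.985). The most like *Sort1* were *Slc33a1* (0.989), *Tctn1* (0.989) and *Gm44562* (0.985). The most like *Kidins220* was the synaptic vesicle gene *Syp* (0.988), and the most like *Ntrk3*, *Bdnf* and *Ngfr* were *Cers4* (0.974), *Mief1* (0.982) and *Rpp40* (0.998). With 6 libraries such values are common: 5 to 85 genes had r over 0.95 with each of the 6 genes.

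The wider pathway was read from 7 lists of 113 genes, of which 99 had enough counts. In edgeR 0 of these 99 passed, against 0% of all genes tested. At an unadjusted p under 0.05 1 was higher and 3 were lower, and over all genes tested 3.18% were higher and 2.63% lower. The median log2 fold change of the 99 genes was -0.15, with 36 higher and 63 lower, beside a median of 0.02 over all genes tested, where 6651 were higher and 6303 lower. The median of the pathway genes stayed below 0 in all 14 alternative fits, but the median of all genes moved too. Without double-labelled pool 3 the pathway median was -0.26, beside -0.03 over all genes. With the replicate block it was -0.29, beside -0.07. Without a filter on low counts it was -0.18, above the -0.34 of all genes, and in DESeq2 it was -0.16, above their -0.31.

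The list of Trk adaptors and coupling proteins had 15 of 23 tested genes lower in double-labelled pools, with a median of -0.28 (-0.10 without DiO-only pool 2 and -0.16 without double-labelled pool 1). At an unadjusted p under 0.05 there were 2 lower and 0 higher. The groups did not overlap for 5 of the 23, all lower, against 7.07% of all genes tested in that direction. *Shc2*, of a phosphotyrosine adaptor, stood at 86.1, 81.2 and 106.4 CPM in DiO-only pools and at 60.2, 35.9 and 48.1 CPM in double-labelled pools (log2 fold change -0.92 ± 0.34, SE; edgeR adjusted p = 0.720). *Shc1*, its better known relative, had values of 10.7 ± 2.35 and 22.1 ± 11.1 CPM (SD, n = 3) with groups that overlapped (edgeR adjusted p = 0.885).

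The Ras-MAPK and PI3K-Akt relay, through which Trk receptors signal to growth and survival, had 18 of 26 genes lower, a median of -0.22 (-0.13 without DiO-only pool 2) and 1 gene lower at an unadjusted p under 0.05. That gene was *Rap1b*, a small GTPase, at 84.2, 63.8 and 70.6 CPM in DiO-only pools and 24.9, 41.4 and 53.3 CPM in double-labelled pools (adjusted p in edgeR 0.803; log2 fold change -0.87 ± 0.37, SE). The Trk endosome trafficking list had 11 of 13 genes lower with a median of -0.37 and 0 at an unadjusted p under 0.05. That median was -0.15 without DiO-only pool 1, -0.16 without double-labelled pool 2 and -0.58 without double-labelled pool 3. Its member *Gipc1*, of an endosomal adaptor protein, had 105 ± 50.9 and 61.9 ± 21.3 CPM (SD, n = 3; edgeR adjusted p = 0.892).

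The sortilin relatives and partners of p75NTR were split, 8 higher and 7 lower, with a median of 0.04 and 0 at an unadjusted p under 0.05. The median ran from -0.13 (without double-labelled pool 3) to 0.10 (without DiO-only pool 3) with 1 pool left out, and it was -0.01 without DiO-only pool 2. *Sorl1*, of a sortilin-related sorting receptor, had 128 ± 61.8 and 235 ± 106 CPM, and *Ndn*, of necdin, which binds p75NTR, had 709 ± 199 and 438 ± 76.9 CPM (SD, n = 3; edgeR adjusted p = 0.877 and 0.869). Genes of neurotrophin processing and release were split 5 to 6, with a median of -0.41 that changed to 0.16 under a stricter filter of 10 counts in 5 libraries. With single pools left out it was -0.62, -0.11 and -0.22 without DiO-only pools 1, 2 and 3 and -0.09 and -0.68 without double-labelled pools 1 and 3. *Mmp9*, of a metalloproteinase that can cleave precursor BDNF, stood at 28.9, 2.00 and 10.1 CPM in DiO-only pools and 41.3, 87.8 and 78.4 CPM in double-labelled pools (edgeR adjusted p = 0.617). It was the only pathway gene called in any alternative fit, in edgeR without a filter on low counts (adjusted p = 0.00122), where 0.277% of 28513 genes were called.

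Genes known to respond to neurotrophins or activity were split too, 5 higher and 6 lower of 11 tested, with a median of -0.06 and 0 at an unadjusted p under 0.05. The median was 0.15 without DiO-only pool 3 and otherwise lay between -0.26 (without double-labelled pool 3) and -0.06 with 1 pool left out. Their summed CPM was 323, 377 and 427 in DiO-only pools and 288, 266 and 639 in double-labelled pools 1, 2 and 3. It was highest in the pool with most *Bdnf*. Among DiO-only pools the order was opposite, with *Bdnf* at 46.1, 39.1 and 14.9 CPM in pools 1, 2 and 3. A link between these genes and *Bdnf* was not tested. Most of the sum in double-labelled pool 3 was *Vgf*, a neuropeptide precursor gene known to be induced by BDNF, which was singled out after its values were seen. *Vgf* stood at 114, 181 and 130 CPM in DiO-only pools and at 18.1, 112 and 441 CPM in double-labelled pools 1, 2 and 3 (edgeR adjusted p = 0.987). The immediate early gene *Fos* had 39, 1 and 46 counts in DiO-only pools 1, 2 and 3. Its counts with both dyes were 0, 1 and 0, so that not all responsive genes were high in double-labelled pool 3.

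**Figure D4:**
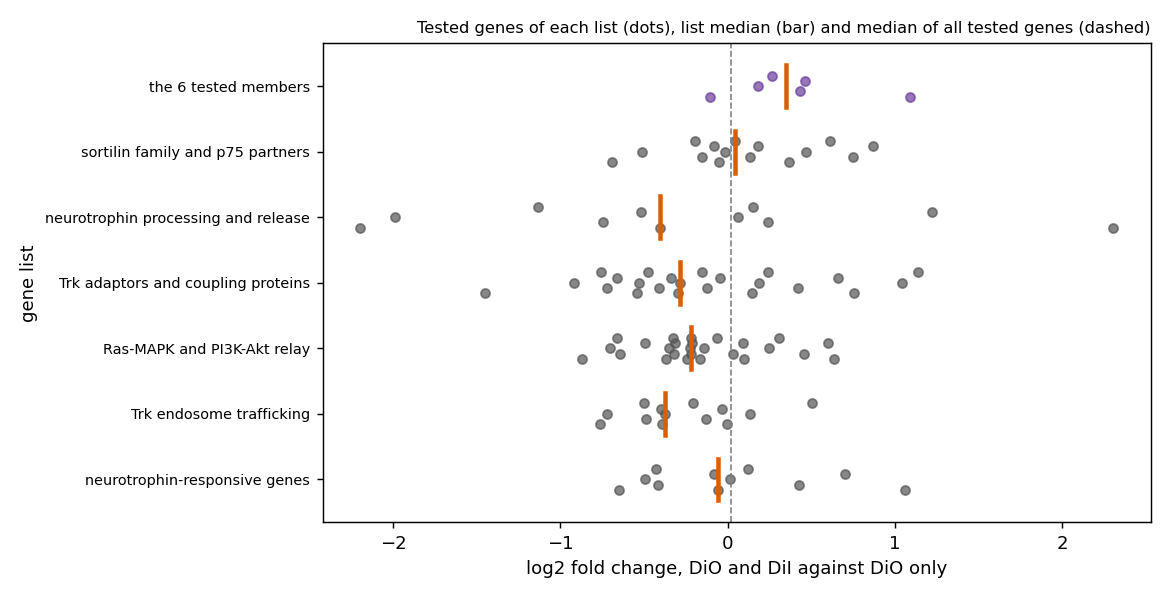
Log2 fold change of double-labelled against DiO-only pools for each tested gene (dots) of the 6 genes described and of 6 pathway lists, with list medians (orange bars) and the median of all genes tested, 0.02 (dashed). The remaining list, represented by *Ntf5*, had no gene with enough counts, and the medians run from -0.41 to 0.04 for the pathway lists.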

How the data were processed

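Per the labels' protocols, cDNA was made and amplified by SMART-Seq HT in 20 cycles of PCR. No molecular identifiers are named, so intervals from counts cover counting error only. The deposited values are raw read counts per Ensembl gene. FastQC, HISAT2, HTSeq and build mm10 are named per the submitters' processing notes. For versions, annotation, strand setting and multi-mapping reads, nothing was given in the sources used here. Counts in the joint table and in the single-library files were identical. GENCODE M21 (GRCm38, also called mm10) held 99.8% of the identifiers and gave 1-based coordinates and exon lengths.

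Genes were filtered with filterByExpr by group (12954 genes kept, 99.2% of counts), scaled with TMM and tested with edgeR 4.0.16 in R 4.3.3 (robust quasi-likelihood F-test, two-sided, Benjamini-Hochberg over all genes tested, threshold 0.05). Of the 7 genes, *Ntf3* was removed by the filter. Standard errors were computed from fold changes and F statistics. Log2 CPM used a prior count of 2. Alternatives were other scalings and filters, DESeq2 1.42.0, limma 3.58.1 voom, a replicate block, another threshold, another length and each library left out. On simulated counts of 12954 genes for this comparison, edgeR recovered 2.99% of genes changed 2-fold, 25.4% changed 4-fold and 65.2% changed 8-fold, with 4 false calls among 66. Figures were drawn with matplotlib 3.10.9.

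The 7 genes and the lists were chosen with earlier results of these data known. The rule for named genes took all 7, the gene of smallest p per direction and pathway list with at least 5 CPM, the 3 genes most like each tested gene, and fixed markers. Not all of these are printed, and some listed genes are not reported here. Lists of microglia, oligodendrocyte precursor, endothelial, Schwann cell, sensory neuron and interneuron markers had 4, 0, 2, 2, 0 and 3 tested genes, and 0 of these were called, as 0 of all genes tested.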

Additional observations from a re-analysis of the deposited data

How the results depend on the processing

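Of the 7 genes 0 passed the threshold in any of the 15 alternatives. Over all genes, edgeR called 79 without a filter on low counts, DESeq2 called 75 and the replicate block called 23, against 0 in the main fit and in the other alternatives. Of the pathway genes 1 was called without the filter, which was *Mmp9*. *Sort1* and *Ntrk2* kept their direction in all 14 fits. Leaving out 1 library at a time moved *Ntrk3* between -0.06 and 0.48, *Ngfr* between -1.27 and 0.46 (also above 0, at 0.03, without DiO-only pool 1), *Bdnf* between -0.80 and 0.83 and *Kidins220* between -0.08 and 0.48 (log2 fold change). The values of opposite sign were those without double-labelled pool 3 for *Ntrk3* and *Bdnf*, without DiO-only pool 1 for *Kidins220* and *Ngfr* and without double-labelled pool 1 for *Ngfr*, and the cause was not tested. The labels do not say that replicate numbers pair the pools or stand for the 3 library batches they mention. Same-numbered pools correlated at 0.074, 0.228 and 0.203 in their deviations from the group means. Each pool correlated best with its own number, for DiO-only pool 1 by little (0.074 against 0.023). Deviations within a group of 3 pools cancel out, so these values depend on each other. They give at most a weak hint, from the data and not from the design, and pairing was not tested. With the replicate block *Sort1* had a log2 fold change of 1.18 (edgeR adjusted p = 0.275), *Ngfr* -0.83 and *Bdnf* 0.02. Depth limits *Ntf3* and *Ntf5*, and the 95% intervals of *Ngfr* and *Bdnf* span more than a 4-fold change.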

Other observations

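A gene on the strand opposite to *Bdnf*, *Gm45346*, shares 896 exon bases with it. It had 7 counts in DiO-only pool 1, 27 counts in double-labelled pool 3 and 0 in the other 4 pools. Those 2 pools were the ones with the highest *Bdnf*, at 46.1 and 98.1 CPM. The strand setting of the counting is not given in the sources used here, so reads of the shared part cannot be assigned to a strand. *Gm9885*, opposite to *Ntrk3* and sharing 0 exon bases with it, had 14 to 41 counts in every pool.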
